A study of Mus musculus with 19 samples.

Results

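The miR-200 family consists of 5 mouse microRNA (miRNA) genes, Mir200b, Mir200a, Mir429, Mir200c and Mir141. Their reads of 20-24 nt, matched in sense to the hairpin precursors with 1 mismatch allowed, were followed in 19 sperm small RNA libraries. The 5 hairpins were among 2198 miRNA hairpins searched, of which 1531 had at least 1 read of this length. The family is best known from epithelial cells, where its members repress the transcription factors Zeb1 and Zeb2 and thereby help to keep the epithelial state. A miRNA is cut from a hairpin, and either of its arms, 5p or 3p, can give the mature strand. Bases 2 to 8 of the mature strand, the seed, pair with target mRNAs, so miRNAs with the same seed share many predicted targets. The epithelium of the epididymis, through which sperm pass while they mature, contains these miRNAs, but no epididymal library was analysed here, and the origin of the reads was not tested.

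The sperm came from wild type male mice of the control group or of the group exposed to dicyclohexyl phthalate (DCHP), a plasticizer, by oral gavage. Gavage began when the mice were 8 weeks old and lasted 4 weeks, and sperm was taken after it. The study's methods name C57BL/6J mice, corn oil as the vehicle, and sperm released from the cauda epididymis, passed through a strainer and treated with a buffer that lyses somatic cells. The labels give DCHP gavage as the treatment of all libraries, so control or exposed status rests on the library titles. Small RNA was sequenced by traditional RNA-seq (5 control and 5 DCHP libraries) and by PANDORA-seq (4 control and 5 DCHP libraries), in which the RNA was first treated with T4 polynucleotide kinase and the demethylase AlkB, enzymes that make modified RNA fragments readable. The study describes its PANDORA-seq sperm replicates as biological replicates of mice. RNA of the sires went through both methods, but no source used here says which library numbers of the methods are the same sire.

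The mature strands are shown because seed and 3′ end separate the members. They are RefSeq sequences (GRCm38.p6), 5′ to 3′, with the seed in capitals. First are the 3p strands, which held most reads, and then the 5p strand of Mir200a.
miR-200b-3p: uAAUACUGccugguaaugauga
miR-429-3p: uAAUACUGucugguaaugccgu
miR-200c-3p: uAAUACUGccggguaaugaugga
miR-200a-3p: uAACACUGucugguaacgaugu
miR-141-3p: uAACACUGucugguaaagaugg
miR-200a-5p: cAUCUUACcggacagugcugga
The first 3 strands share the seed AAUACUG and the next 2 share AACACUG. Counted from 1 at the 5′ end, with the base of miR-200b-3p first, the seed difference to miR-200a-3p is U4C. Over 22 compared bases, miR-200a-3p and miR-141-3p were the same at 20, and so were miR-200b-3p and miR-200c-3p, so the closest relative of each lies on another chromosome.

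The genes form 2 clusters on the minus strand of GRCm38. Mir200b (chromosome 4, 156055681 to 156055750), Mir200a (156054896 to 156054985) and Mir429 (156053905 to 156053987) span 1846 bases. All 3 lie within the protein coding gene Ttll10 and the noncoding transcript Gm13648, and Mir429 overlaps an exon of Gm13648. Mir200c (chromosome 6, 124718322 to 124718390) and Mir141 (124717914 to 124717985) span 477 bases within the antisense transcript Gm15884, and Mir141 overlaps an exon of Gm29008.

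Libraries of both methods were sequenced to a like depth, but PANDORA-seq gave far fewer miRNA reads. Traditional libraries held 21588335 to 52099239 reads in all and PANDORA-seq libraries 25432054 to 56506344. The miRNA total, counted as 20-24 nt reads on 217 hairpins for which at least 50% of the reads had this length, was 956190 to 8105517 in traditional RNA-seq and 5154 to 45596 in PANDORA-seq. Levels are given as reads per 1e6 reads of this miRNA total (RPM). Mir122, a miRNA of the liver, took 43.4% of the total in traditional control library 2, 24.2% in traditional control 1, 21.6% in traditional DCHP 2, and 28.7% and 26.6% in PANDORA-seq control 2 and DCHP 2. In the other 14 libraries it took 1.39% to 12.8%.

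Mir200b was the most abundant member in all 19 libraries and Mir141 the least. In traditional RNA-seq the mean levels in RPM were 12477 for Mir200b, 5540 for Mir200c, 4255 for Mir200a, 340 for Mir429 and 29.1 for Mir141, with ranks 16, 23, 31, 88 and 145 among the 217 hairpins. In PANDORA-seq the means in the same order were 10420, 4115, 4052, 498 and 49.9 RPM, and Mir200c and Mir200a stood next to each other at ranks 33 and 34. Mir141 is not among the 217 hairpins, since 34.7% of its reads in traditional RNA-seq were of 20-24 nt and its most frequent length was 16 nt. Its rank is therefore the place its level would take, and 44.0% of its reads of all lengths matched other hairpins as well.

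Of family reads, Mir200b held 54.3% ± 2.89 (SD, n = 5) in traditional controls and 54.9% ± 4.86 (SD, n = 5) in traditional DCHP libraries. It held 54.9% ± 3.30 (SD, n = 4) in PANDORA-seq controls, against 53.6% ± 6.28 (SD, n = 5) with DCHP. These group means differed by less than the SD within a group. Genes of a cluster and genes of different clusters varied together over the 10 traditional libraries, which include both exposure groups. Pearson's r of log2 levels was 0.96 for Mir200b and Mir200a, 0.94 for Mir200b and Mir200c, and 0.79 for Mir429 and Mir200c, the lowest of the 10 pairs. All levels share the same total in a library, so these r are descriptions.

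Levels of the family were high in 2 of the 5 DCHP libraries, and the same library numbers stood out by both methods. In traditional RNA-seq, the chromosome 4 cluster had 9819, 4261, 15629, 11051 and 14061 RPM in control libraries 1 to 5. It had 15670, 13427 and 13396 in DCHP libraries 1 to 3, and 36290 and 37116 in libraries 4 and 5. DCHP libraries 1 to 3 thus lay within or next to the control range, and libraries 4 and 5 stood above all others. In PANDORA-seq the cluster had 7566, 7244, 10355 and 9210 in controls 1 to 4, 9250, 8207 and 14213 in DCHP libraries 1 to 3, and 34500 and 34192 in libraries 4 and 5. With Mir122 left out of the total, traditional control 2 had 7529 and the other traditional controls 11269 to 16054, against 37827 and 37638 in DCHP libraries 4 and 5.

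**Figure D1:**
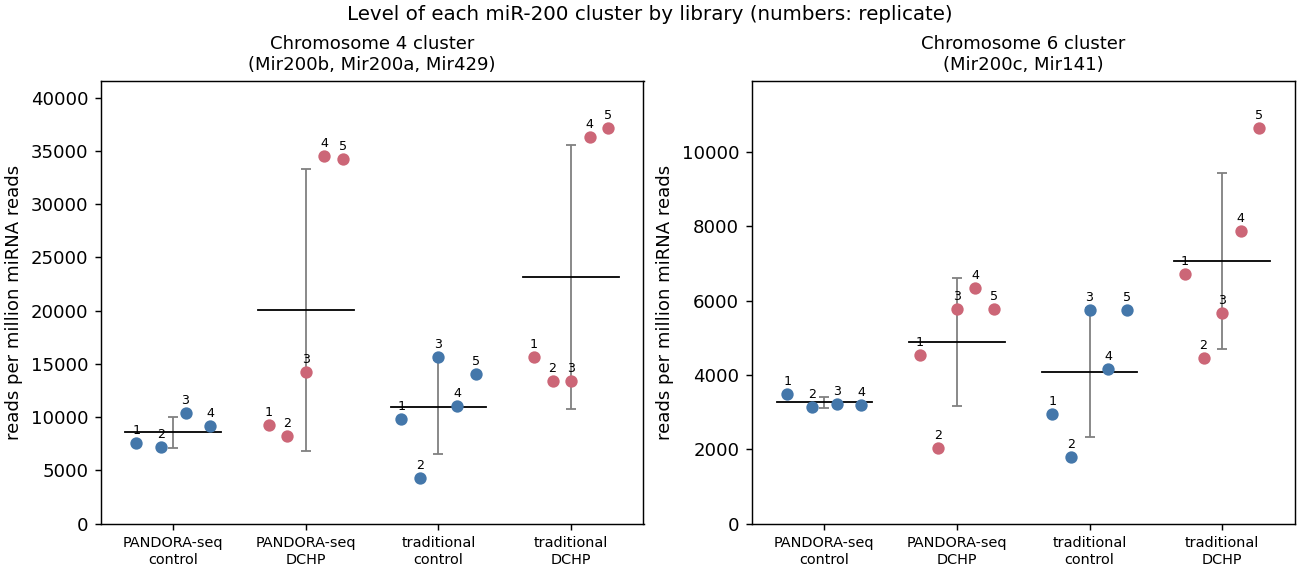
Levels in RPM of the 3 chromosome 4 hairpins (left) and the 2 chromosome 6 hairpins (right) in each library, by method and exposure, with replicate numbers beside the points, means as black lines and SD as grey bars. DCHP libraries 4 and 5 sit between 34192 and 37116 on the left, above all other libraries of both methods.

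The balance of the clusters is tested below, and the chromosome 6 cluster stood less apart in DCHP libraries 4 and 5. Its levels in traditional RNA-seq were 1793 to 5747 in controls (median 4148, n = 5) and 4458 to 10630 in DCHP libraries (median 6702, n = 5), and the groups overlapped. DCHP libraries 4 and 5, at 7865 and 10630, were the highest of that method. In PANDORA-seq the levels were 3142 to 3492 in controls and 2033 to 6325 in DCHP libraries. DCHP libraries 1 to 3 had 4536, 2033 and 5776 there, and libraries 4 and 5 had 6325 and 5768, so library 5 did not stand above library 3. Same-numbered libraries of the 2 methods also resembled each other over other miRNAs, so the methods may not be independent sets of samples. In bulk RNA, fewer or more cells of a type and a change of RNA per cell cannot be told apart.

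No member passed the test between DCHP and control. With edgeR's quasi-likelihood test over all hairpins with enough reads, 0 of 393 hairpins in traditional RNA-seq (0%) and 0 of 180 in PANDORA-seq (0%) were called, that is, changed more than 2-fold with an adjusted p under 0.1. At an unadjusted p below 0.05 there were 24 and 8. DESeq2 with the same totals called 2 hairpins in traditional RNA-seq, Mir429 and Mir141 (both with adjusted p = 0.02), and 0 in PANDORA-seq, where 7 had an unadjusted p below 0.05. With its own size factors DESeq2 called 0 in each, with 31 and 10 at an unadjusted p below 0.05.

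All 5 members were higher on average in DCHP libraries of traditional RNA-seq, as were 243 of the 393 hairpins tested. Mir141 and Mir429 ranked 1 and 2 of 393 by p. Mir141 levels were 9.80, 8.82, 16.9, 17.5 and 9.51 RPM in controls 1 to 5 and 42.4, 19.3, 20.1, 65.1 and 81.0 in DCHP libraries 1 to 5, so every DCHP library was above every control. This was true of 1 of the 5 members, against 1.27% of the 393 hairpins (5 hairpins, the others being Mirlet7i, Mir471, Mir181d and Mir872, named after their values were seen). The Mir141 values rest on 11 to 237 reads. Over the 20 nt of its most frequent form, miR-141-3p differs from miR-200a-3p at 1 base (C17A, miR-200a-3p first). That form had 386 reads in traditional RNA-seq, against 63248 for the 20 nt form of miR-200a-3p. Forms of miR-200a-3p with 1 mismatch had up to 524 reads. The part of misread Mir200a reads in the Mir141 values was not tested. The log2 fold change of Mir141 was 1.86 ± 0.48 (SE; edgeR adjusted p = 0.271). It was 2.05 (edgeR adjusted p = 0.0906, a call) when only exact matches were counted, and 1.11 (edgeR adjusted p = 0.97) without DCHP libraries 4 and 5.

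Mir429, the chromosome 4 gene with the fewest reads, had the largest fold change of the 5 members. Its levels were 107, 64.3, 138, 102 and 112 RPM in controls 1 to 5. They were 151, 138, 169, 463 and 1961 in DCHP libraries 1 to 5, so library 5 was far above the rest and the groups overlapped at 138. The log2 fold change was 2.46 ± 0.65 (SE; edgeR adjusted p = 0.271), and it was 1.14 without DCHP library 5 and 0.54 without libraries 4 and 5. In PANDORA-seq, DCHP library 5 was again the highest, at 2171 RPM (99 reads), with 151 to 575 (2 to 9 reads) in the other DCHP libraries and 175 to 388 (2 to 5 reads) in controls.

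Mir200a, which carries the AACACUG seed, had levels of 2679, 1092, 2987, 2631 and 3662 in traditional controls 1 to 5 and of 4346, 2727, 3303, 8893 and 10229 in DCHP libraries 1 to 5. The groups overlapped, and DCHP libraries 4 and 5 were the highest. Its log2 fold change was 1.18 ± 0.42 (SE; edgeR adjusted p = 0.659). In PANDORA-seq its log2 fold change was 1.62 ± 0.55 (SE; edgeR adjusted p = 0.377), at rank 2 of 180 by p, from 582 to 2919 RPM in controls (3 to 63 reads) and 2259 to 12764 in DCHP libraries (27 to 582 reads). None of the 3 members tested in PANDORA-seq had every DCHP library above every control, which 1.11% of the 180 hairpins did (2 hairpins, Mir140 and Mir34c, named after their values were seen).

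Mir200b and Mir200c had the smallest fold changes of the members tested. They share the seed AAUACUG with Mir429, which had the largest in traditional RNA-seq. Mir200b levels were 3105 to 12504 in traditional controls and 9924 to 26934 in DCHP libraries, with a log2 fold change of 1.02 ± 0.41 (SE; edgeR adjusted p = 0.701), close to that of Mir200a. Mir200c levels were 1784 to 5738 and 4438 to 10549, with a log2 fold change of 0.79 ± 0.37 (SE; edgeR adjusted p = 0.761). In PANDORA-seq their log2 fold changes were 1.06 ± 0.50 and 0.57 ± 0.50 (SE), with edgeR adjusted p = 0.825 and 1.0. Mir429 and Mir141 had too few reads to be tested there. Mir141 had 0 reads in 5 of the 9 PANDORA-seq libraries, which allows levels of up to 139 to 582 RPM, above its level in every traditional library.

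**Figure D2:**
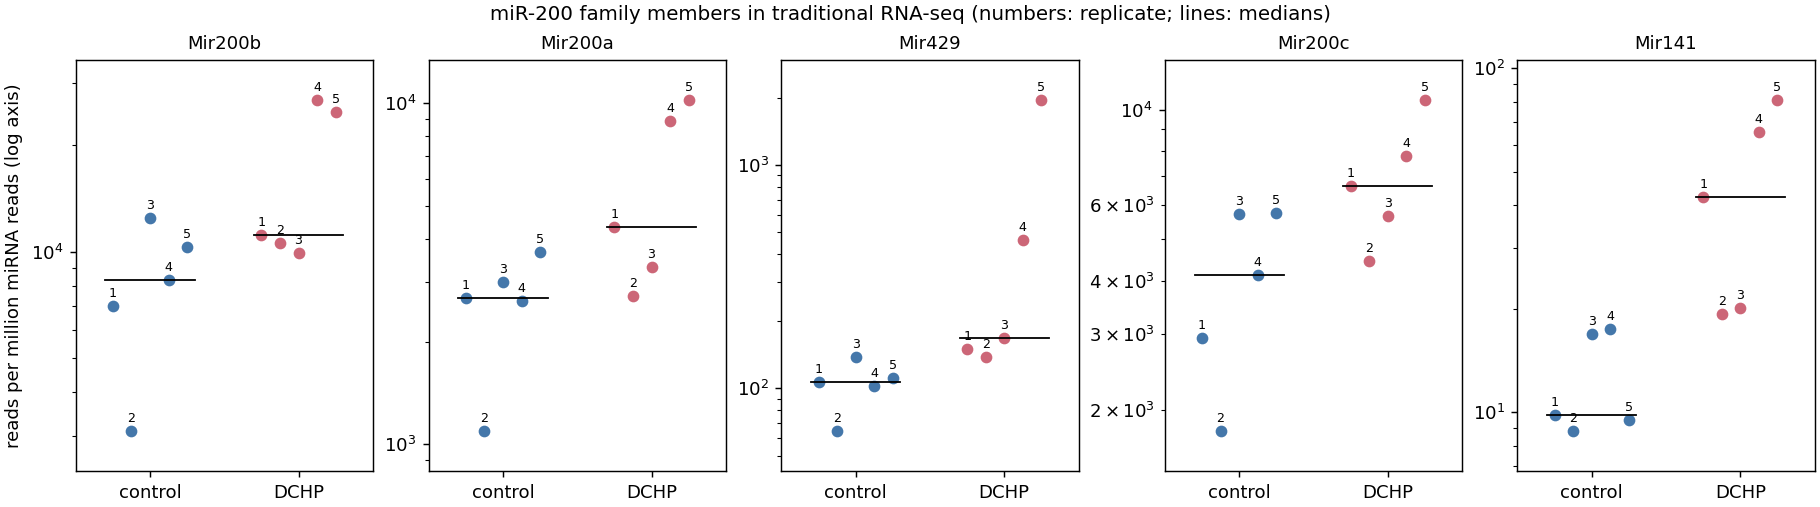
Levels in RPM (log axes) of each member in the traditional RNA-seq libraries, control and DCHP, with replicate numbers and medians. DCHP libraries 4 and 5 are the highest for each member, and Mir429 reaches 1961 in library 5.

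Without DCHP libraries 4 and 5 the log2 fold changes of Mir200b, Mir200a and Mir200c fell to 0.36, 0.41 and 0.46 in traditional RNA-seq and to 0.22, 0.48 and 0.32 in PANDORA-seq. This removal was chosen after the values were seen, and took out libraries with high levels, so lower fold changes were bound to follow. The median log2 fold change of all hairpins tested was 0.17 in traditional RNA-seq and -0.01 in PANDORA-seq. TMM scaling moved that median to -0.20 in traditional RNA-seq and left the 5 member values between 0.50 and 2.14. With Mir122 left out of the total, the traditional log2 fold changes were 1.69 for Mir141, 2.28 for Mir429, 1.06 for Mir200a, 0.93 for Mir200b and 0.71 for Mir200c. The 3 PANDORA-seq values were then 0.49 to 1.57, and edgeR called no hairpin in either method.

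**Figure D3:**
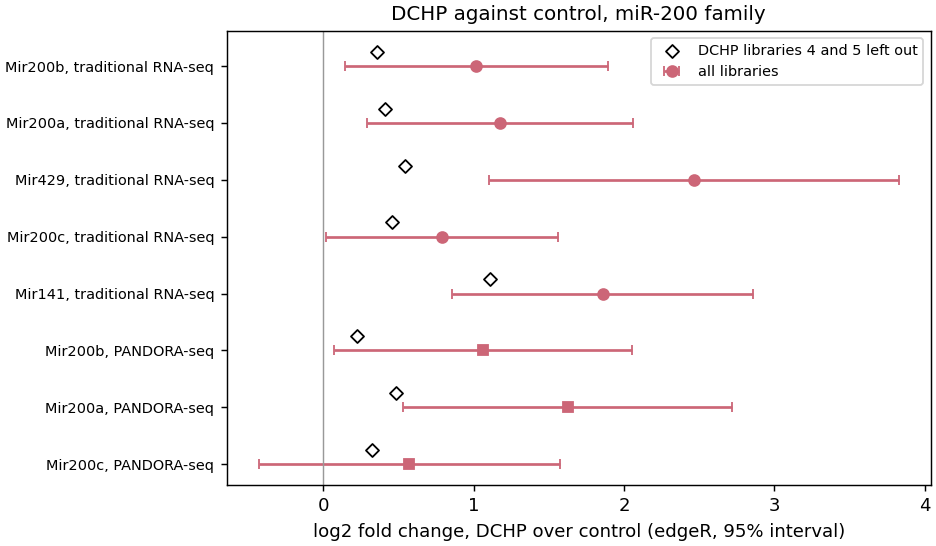
Log2 fold change of DCHP over control for each tested member, by method (circles, traditional RNA-seq; squares, PANDORA-seq), with 95% intervals from edgeR, and the value without DCHP libraries 4 and 5 (diamonds). All diamonds lie closer to 0 than the full-set values, from 0.22 to 1.11. Those libraries were left out after their high values were seen, so this shift follows from the choice.

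The effect of DCHP was not shown to differ between methods for the 3 members tested in both. The difference, PANDORA-seq minus traditional RNA-seq, was 0.45 ± 0.72 for Mir200a, 0.04 ± 0.63 for Mir200b and -0.22 ± 0.55 for Mir200c on the log2 scale (SE), each with edgeR adjusted p = 0.985. Of 172 hairpins 0 (0%) were called by edgeR or DESeq2. With an unadjusted p below 0.05 there was 1 by edgeR and by DESeq2 with the same totals, and 38 by DESeq2 with its own size factors. These fits treat the 19 libraries as independent. With same-numbered libraries of the 2 methods as a block, added after the values were seen, the differences were 0.13 for Mir200a, -0.29 for Mir200b and -0.52 for Mir200c (edgeR adjusted p = 0.974, 0.974 and 0.748), and 0 hairpins were called, with 18 at an unadjusted p below 0.05.

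Marker miRNAs of other cell types were read in the same libraries. The sum of 6 other epithelial miRNAs (Mir182, Mir183, Mir375, Mir203, Mir205 and Mir96) was 9260 to 30353 RPM in traditional controls and 14557 to 24900 in DCHP libraries, with 23266 and 14557 in libraries 4 and 5. In PANDORA-seq it was 10298 to 21034 RPM in controls and 12649 to 18945 in DCHP libraries, with 15589 and 13773 in libraries 4 and 5. The sums of libraries 4 and 5 lay within the control range in both methods. The sum is set by its abundant members, while Mir205, at a mean of 146 RPM in traditional RNA-seq, had Pearson's r = 0.88 with the log2 family level over those 10 libraries (log2 fold change 0.52) and -0.19 over the 9 of PANDORA-seq. In traditional RNA-seq 0 of 6 were called, with log2 fold changes from -0.31 (Mir203) to 1.06 (Mir96, edgeR adjusted p = 0.761; these and Mir205 named after their values were seen), and in PANDORA-seq 0 of 3 tested were called. The median of the 6 in traditional RNA-seq was -0.13. Mir183 (-0.20), Mir182 (-0.18) and Mir375 (-0.07) were below 0 like Mir203, and only Mir205 and Mir96 were above. The sum of 5 smooth muscle and stroma miRNAs, mostly Mir143, was 28764 to 79693 in traditional controls and 51852 and 64928 in DCHP libraries 4 and 5. In PANDORA-seq it was 12029 to 30022 in controls, 17522 to 32713 in DCHP libraries 1 to 3, and 48151 and 92004 in libraries 4 and 5. In PANDORA-seq 0 of 2 tested were called, with log2 fold changes of 1.22 (Mir143, edgeR adjusted p = 0.825) and -0.11 (Mir145a). In traditional RNA-seq 0 of 5 were called, with log2 fold changes from -0.32 to 0.19. The part of smooth muscle and stroma cells in the miR-200 levels was not tested. Blood cell miRNAs (5 of 7 listed were matched by name) summed to 111 to 737 RPM in traditional RNA-seq, with 210 and 171 in DCHP libraries 4 and 5. Spermatogenic miRNAs, led by Mir34c, summed to 771 to 3703 in traditional controls and 3057 to 6566 in DCHP libraries, with 4199 and 4870 in libraries 4 and 5 and 0 of 3 tested called. In PANDORA-seq they summed to 1714 to 4074 in controls and 3012 to 5987 in DCHP libraries, with 4919 and 5987 in libraries 4 and 5 and 0 of 2 tested called. The r of Mir34c with the family level was 0.81 over the traditional and 0.76 over the PANDORA-seq libraries, which share exposure group and total. Its log2 fold changes were 0.84 and 0.995 (edgeR adjusted p = 0.761 and 1.0). For Mir34b of the same list, the r were 0.80 and 0.28 and the log2 fold changes 0.59 and 0.25. The part of germ cell RNA in the miR-200 levels was not tested.

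The balance of the clusters did not differ beyond the spread of libraries. In control libraries of traditional RNA-seq, chromosome 4 reads were 2.38 to 3.33 times the chromosome 6 reads, and in PANDORA-seq 2.17 to 3.22 times. In DCHP libraries they were 2.34 to 4.61 times and 2.04 to 5.93 times, with DCHP libraries 4 and 5 the highest in each method. The mean log2 ratio of chromosome 6 to chromosome 4 differed by -0.19 (DCHP minus control) in traditional RNA-seq (two-sided exact permutation p = 0.405) and by -0.49 in PANDORA-seq (exact permutation p = 0.222). Without DCHP libraries 4 and 5 the differences were 0.07 and -0.06 (exact permutation p = 0.589 and 0.83). As these had the lowest ratios of chromosome 6 to chromosome 4, a rise of the difference follows from leaving them out. Between methods the mean log2 ratio differed by 0.04 in controls (exact permutation p = 0.77) and -0.26 in DCHP libraries (exact permutation p = 0.468). Over these 4 tests and 4 of the 5p share, adjusted p-values were 0.444 to 0.77, and the smallest p these group sizes allow is 0.00794.

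The 5p arm gave a sizeable share of Mir200a and Mir141 reads and few of the reads of Mir200b, Mir200c and Mir429. Over traditional RNA-seq, the 5p arm gave 17.9% of 102956 Mir200a reads, 1.19% of 300463 Mir200b reads, 7 of 131938 Mir200c reads and 3 of 9202 Mir429 reads. Of Mir141 reads, few in number and with reads of several hairpins split, 14.5% were from the 5p arm in traditional RNA-seq and 3 of 11 in PANDORA-seq. Of these Mir141 5p reads, 37 of 107 in traditional RNA-seq and 0 of 3 in PANDORA-seq began at the RefSeq first base of miR-141-5p. The 3 Mir429 reads began 16 bases after the RefSeq start of miR-429-5p. In PANDORA-seq the 5p arm gave 18.3% of 928 Mir200a reads, 582 of which came from DCHP library 5, and 32.7% of the 346 reads without that library. By group it gave 53.6% of pooled Mir200a reads in PANDORA-seq controls and 26.1% in traditional controls, but 12.8% in PANDORA-seq DCHP libraries and 14.5% in traditional ones. The 12.8% is of 803 reads and is set mostly by the 582 of library 5. Shares in single PANDORA-seq DCHP libraries were 9.79% (library 5) to 41.2%. The 5p arm gave 2.04% of 1912 Mir200b reads in PANDORA-seq and 0 of 129 Mir429 reads, which allows a share of up to 2.33% for counting error alone. The 5p share of all 5 hairpins was 5.96% ± 1.83 (SD, n = 5) in traditional controls and 4.22% ± 1.24 (SD, n = 5) with DCHP (exact permutation p = 0.103). PANDORA-seq controls had 9.40% ± 4.91 (SD, n = 4) and DCHP libraries 6.61% ± 3.07 (SD, n = 5) (exact permutation p = 0.302). The methods differed by 3.43 percentage points in controls (exact permutation p = 0.222; 8.52 points and p = 0.00794 when reads of 15-45 nt were counted) and 2.39 in DCHP libraries (exact permutation p = 0.143). Among same-numbered libraries, the share was higher in PANDORA-seq in 3 of 4 control pairs and in 5 of 5 DCHP pairs (exact sign-flip permutation p = 0.375 and 0.0625, the latter the smallest that 5 pairs allow).

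Mir200a was examined alone after its values were seen. Its 5p arm, with all its read forms, held 31.4%, 21.7%, 21.4%, 31.2% and 37.1% of Mir200a reads in traditional controls 1 to 5 and 23.9%, 22.9%, 27.7%, 13.3% and 8.92% in DCHP libraries 1 to 5. In PANDORA-seq it held 66.7%, 31.6%, 54.0% and 62.5% in controls 1 to 4 (3 to 63 reads) and 25.9%, 33.3%, 41.2%, 11.5% and 9.79% in DCHP libraries. The groups overlapped in both methods, and DCHP libraries 4 and 5 had the lowest shares in each. The means differed (DCHP minus control) by -9.24 percentage points in traditional RNA-seq (exact permutation p = 0.0873, adjusted over 4 tests 0.116) and by -29.3 in PANDORA-seq (exact permutation p = 0.0397, adjusted 0.0794). Leaving out any single PANDORA-seq library other than control 2 raised the latter exact permutation p to between 0.0571 and 0.0893. Without DCHP libraries 4 and 5 the differences were -3.75 and -20.2 percentage points (exact permutation p = 0.429 and 0.143). Those libraries had the lowest shares, so smaller differences follow from leaving them out. In controls, PANDORA-seq shares were higher than traditional ones by 25.1 percentage points (exact permutation p = 0.0159, adjusted 0.0635). With libraries paired by number the difference was 27.2 points over 4 pairs (exact sign-flip permutation p = 0.125, the smallest possible). Without traditional control 1, 2, 3 or 4 the exact permutation p was 0.0571. In DCHP libraries the methods differed by 5.02 points (exact permutation p = 0.476, adjusted 0.476).

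**Figure D4:**
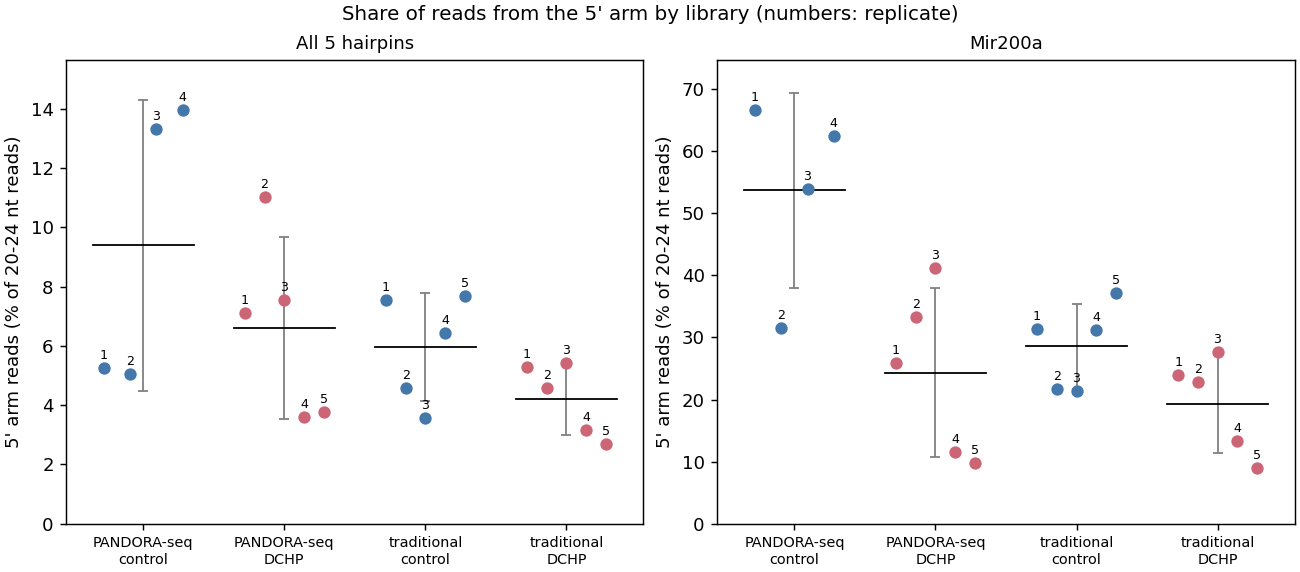
Percent of 20-24 nt reads from the 5p arm in each library, for all 5 hairpins (left) and for Mir200a (right), by method and exposure, with replicate numbers, means as black lines and SD as grey bars. For Mir200a the lowest shares, 8.92% to 13.3%, are those of DCHP libraries 4 and 5.

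The 5′ ends of the 3p strands, which set the seed, were nearly fixed. In traditional RNA-seq 97.9% of miR-200b-3p reads, 99.8% of miR-200a-3p reads and 99.6% of both miR-429-3p and miR-200c-3p reads began at the RefSeq first base. The 3′ ends were more varied and differed by member. The most frequent miR-200b-3p read was the RefSeq form of 22 nt, with 60.0% of its reads. For miR-200a-3p it was a form of 20 nt, 2 bases short of the RefSeq end, with 74.9% in traditional RNA-seq and 77.7% in PANDORA-seq, and the same form stood first for miR-141-3p. These are shown as read, with T for U and the seed in capitals.
miR-200a-3p, most frequent read: tAACACTGtctggtaacgat
miR-141-3p, most frequent read: tAACACTGtctggtaaagat
The most frequent miR-429-3p read was of 21 nt, with 63.2% in traditional RNA-seq and 65.9% in PANDORA-seq. For miR-200c-3p in traditional RNA-seq, 42.5% of reads were of 22 nt and 15.5% of 20 nt. In PANDORA-seq these shares were 34.4% and 29.1% over all libraries, 28.4% and 32.0% in controls, and 29.4% and 31.3% without DCHP library 5, so the order of both lengths rests on that library. Without DCHP library 5, reads of 21 nt made up 57.6% of miR-429-3p reads in traditional RNA-seq (71.7% with it) and 20 of the 30 left in PANDORA-seq.

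**Figure D5:**
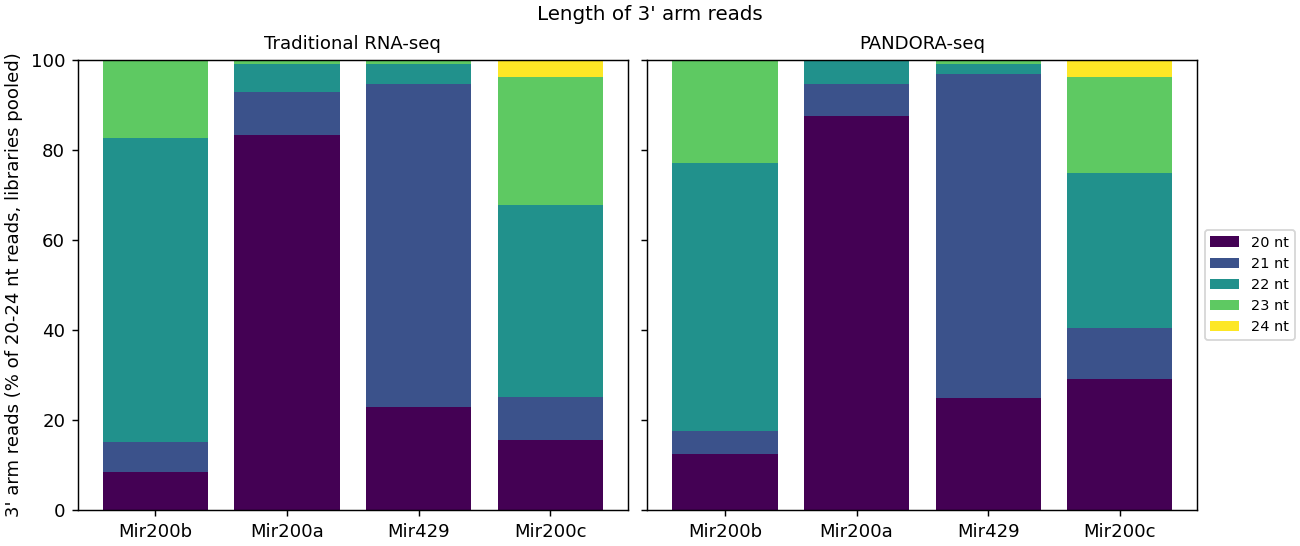
Length of 3p reads of 20-24 nt for 4 members, as percent of each member's 3p reads with libraries pooled, in traditional RNA-seq (left) and PANDORA-seq (right). Mir200a is mostly 20 nt (83.4% and 87.6%), Mir429 mostly 21 nt (71.7% and 72.1%) and Mir200b mostly 22 nt (67.6% and 59.4%).

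By seed, AAUACUG strands made up 84.3% to 88.5% of 3p reads in traditional controls and 79.8% to 87.6% in DCHP libraries. They made up 88.5% to 98.1% in PANDORA-seq controls and 69.7% to 89.1% in DCHP libraries, so the groups overlapped. Of family reads, 0.421% in traditional RNA-seq and 0.603% in PANDORA-seq matched another hairpin equally well, and 10.9% and 11.2% had 1 mismatch. By member, the share with 1 mismatch in traditional RNA-seq was 32.8% for Mir141 and 10.1% to 12.6% for the others.

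Relative to other miRNAs, no member was called between methods. PANDORA-seq against traditional RNA-seq called 171 of 343 hairpins in controls (49.9%) and 147 of 328 in DCHP libraries (44.8%) by edgeR, and 0 of the 5 members in each. Log2 fold changes of members were -0.46 (Mir200a) to 1.18 (Mir429) in controls and -0.54 (Mir200c) to 1.06 (Mir141) in DCHP libraries. The median over all hairpins tested was 1.20 and 0.86. Mir429 and Mir141 passed the read filter between methods through the traditional libraries. In PANDORA-seq controls they had 2 to 5 and 0 to 1 reads a library, and with DCHP 2 to 99 and 0 to 7. The control value of Mir429, on those 2 to 5 reads, was close to the threshold (edgeR adjusted p = 0.1002). It was called when reads of 15-45 nt were counted (1.59, edgeR adjusted p = 0.0138), with reads of 1 hairpin only (1.43, edgeR adjusted p = 0.0635) and with Mir122 left out of the total (1.099, edgeR adjusted p = 0.0793). It was also called in controls without PANDORA-seq control 2 (log2 fold change 1.30, edgeR adjusted p = 0.087) or traditional control 2 (1.03, 0.0748), and in DCHP libraries without traditional DCHP library 5 (1.76, 0.0161). Intervals were wide, as for Mir200b in controls, whose 95% interval was -1.27 to 0.59 on the log2 scale. As a share of all reads, the family was far lower in PANDORA-seq, at 2.24 to 41.3 reads per 1e6 reads of all kinds in its 9 libraries against 536 to 4319 in the 10 traditional ones. With all reads as the total, the log2 fold change of Mir200b in controls was -7.69, where the median of all hairpins was -6.14. With TMM, DESeq2's own size factors, all reads, or all hairpin reads of 20-24 nt or of 15-45 nt as the total, the members' 50 values were all below 0 and 43 were called. Most hairpins were called under these 5 settings, 260 to 331 of 343 in controls and 252 to 309 of 328 in DCHP libraries. With Mir122 left out of the miRNA total, Mir429 was above 0 in controls and in DCHP libraries (1.099 and 0.46), and so was Mir141 (0.35 and 1.07), so for Mir429 and Mir141 the direction between methods depended on the total used.

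Over the 10 traditional libraries, the 5 hairpins most like the summed family level, by Pearson's r of log2 levels, were Mir196b (0.93), Mir379 (0.91), Mir7-2 (0.91), Mir7-1 (0.91) and Mir320 (0.90), where the median r of 175 hairpins was 0.27. In the 9 PANDORA-seq libraries the r of these hairpins was 0.28, 0.57, 0.04, 0.04 and -0.63. Mir7-1 and Mir7-2 give the same mature strand and share reads. The libraries share exposure group and total, and no p was computed.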

How the data were processed

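For each library, the authors deposited counts: each distinct read of 15 to 45 nt with its number of reads, not normalized and without molecular identifiers. The submitters' processing notes name the build mm10. The study's methods name SPORTS1.1 for annotation, which was not used here. Reads were matched to miRNA hairpins of GENCODE M21 (GRCm38) in sense, 1 mismatch was allowed, the best match was kept, and reads of several hairpins were split equally. A read was counted to the 5p or 3p arm by the side of the hairpin's middle on which its own midpoint lay. Counts were rounded and tested with edgeR 4.0.16 in R 4.3.3 (quasi-likelihood, Benjamini-Hochberg over all hairpins tested, at least 10 reads in as many libraries as the smaller group holds). Calls needed more than a 2-fold change and an adjusted p under 0.1. DESeq2 1.42.0, other totals, filters and matches were alternatives. A cluster with 0 reads was given 0.5 reads. The members, marker lists and tests were chosen with earlier results of these data known. The rule for named hairpins took all members, at most 3 markers per list with the highest level, and the 5 hairpins most like the family. Mir205, Mir203, Mir96, Mir122 and hairpins named beside counts of 5 or fewer fall outside it and were named after their values were seen.

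On simulated counts for DCHP against control, edgeR recovered 100% of hairpins changed 4-fold (66) or 8-fold (65) among 393 in traditional RNA-seq, with 6.43% of calls false. Among 180 in PANDORA-seq it recovered 96.9% changed 4-fold (32) and 100% changed 8-fold (28), with 7.81% false. Between methods it recovered 69.0% changed 4-fold (58) and 76.8% changed 8-fold (56) among 343 in controls, and 87.0% (54) and 94.5% (55) among 328 in DCHP libraries. For DCHP against control, 262 of the 393 and 120 of the 180 simulated hairpins were left unchanged, so many hairpins changed at once. Many changes make an adjusted p easier to pass, so these shares need not hold where few hairpins change. In the real traditional libraries Mir429, at a fold change of 5.51, was not called. The matcher was checked on simulated reads. Limits for counts of 0 cover counting error only. The SE and 95% intervals given for edgeR were computed from the fold change and F statistic of its test. These intervals include the spread between libraries.

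Groups share replicate numbers. Over 93 hairpins, deviations from group means correlated in all 9 same-numbered pairs between methods (r 0.153 to 0.804), each more than with any other number, and these were taken as paired. The study states that sperm RNA of control and exposed sires went through both methods, without matching single libraries, so the match of numbers comes from the data. Within a method they did not pair. No pair of libraries agreed within sampling noise (36 within-group pairs, lowest chi-square over its degrees of freedom 10.5).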

Additional observations from a re-analysis of the deposited data

Results flagged for a closer look

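Mir429 in DCHP library 5 lay far from the other 4 DCHP libraries in both methods. It had 2171 RPM in PANDORA-seq, where the next library had 575, and 1961 in traditional RNA-seq, where the next had 463. Mir141 had 54.2 RPM in PANDORA-seq control library 4, from 1 read, and 0 in the other 3 controls. Any single read would stand apart there. Of 32 groups of values looked at, these 3 had such a library, where chance gives about 1 in 20 for values without ties at 0. The Mir429 values are from same-numbered libraries, taken as paired, and are not independent of each other.

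Reads of 15-19 nt, which the main comparisons did not use, had DCHP means above the highest control library for all 5 members in traditional RNA-seq and for Mir200a in PANDORA-seq, where the other 4 did not. In traditional RNA-seq the means in RPM were 56.9 for Mir200b (highest control 51.4), 377 for Mir200a (217), 71.2 for Mir429 (39.8), 237 for Mir200c (185) and 85.5 for Mir141 (49.3). In PANDORA-seq the mean was 583 for Mir200a (510). Of 467 hairpins with enough reads of this length in traditional RNA-seq, 19.9% had such a DCHP mean. Without DCHP libraries 4 and 5 it was 26.3% of the hairpins and 3 of the 5 members (Mir200a, Mir429 and Mir141). For Mir200b, DCHP libraries 1 to 3 had 27.2 to 29.8 RPM, and libraries 4 and 5 had 99.3 and 100.4. Mir200a had too few such reads in PANDORA-seq to be among the 162 hairpins compared there, of which 4.32% had such a mean, or 24.1% without DCHP libraries 4 and 5. These differences were not tested.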

How the results depend on the processing

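The DCHP log2 fold changes of the members were above 0 under all 181 alternative values, and 3 of these were calls, given in the report. The alternatives reuse the same libraries and are not independent of each other. DESeq2 with the miRNA totals called 2 hairpins in traditional RNA-seq, and counting exact matches called 1. In PANDORA-seq 1 hairpin, Mir146b (named after its values were seen), was called without a filter on low counts (log2 fold change 2.47, edgeR adjusted p = 0.0715). Leaving out single libraries gave 0 to 1 calls there, the 1 again Mir146b, without DCHP library 1 or 2 or control 3. The cause was not tested.

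Between methods, calls in controls and DCHP libraries were 331 and 299 with TMM, 265 and 260 with 20-24 nt reads on all hairpins as the total, 260 and 252 with all reads, 324 and 309 with 15-45 nt reads on all hairpins, 288 and 269 with DESeq2's own size factors, 537 and 471 with no filter, 354 and 313 counting reads of 15-45 nt, and 73 and 49 counting reads of 1 hairpin only. Leaving out single libraries gave 151 to 202 and 146 to 158. In controls, in the order of the first 5 of these settings, Mir141 reversed to -3.91, -1.71, -6.44, -4.33 and -1.999 (log2), and Mir429 to -3.31, -1.03, -6.25, -3.77 and -1.62. In DCHP libraries Mir141 reversed to -1.25, -0.71, -5.88, -3.19 and -0.82, Mir429 to -1.86, -0.95, -6.38, -3.39 and -1.42, and Mir200a to -2.14, -1.48, -6.69, -3.92 and -1.80. Mir200a in DCHP libraries, at 0.00292, also reversed to -0.00398 with DESeq2 and the miRNA totals and to -0.00301 with exact matches, and ranged from -0.52 to 0.30 when single libraries were left out. Leaving out single libraries moved Mir429 from -0.80 to 1.76 in DCHP libraries and Mir141 from -7.62 to 1.11 in controls, the lowest without PANDORA-seq control 4, its 1 library with a read. Mir200c in controls was 0.000254 with reads of 15-45 nt. The difference in the DCHP effect reversed for Mir200c to 0.33, 0.14, 0.16, 0.38 and 0.65 under the same 5 settings. It reversed for Mir200b to -0.20 with reads of 1 hairpin only and -0.13 without DCHP libraries 4 and 5. Without single libraries it ranged from -0.32 to 0.28 for Mir200b and from -0.0754 to 0.754 for Mir200a.

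The cluster ratio between DCHP and control in traditional RNA-seq reversed to 0.0749 (log2) without DCHP libraries 4 and 5, which had the lowest ratios. Between methods in controls the difference of the cluster ratio ranged from -0.0451 to 0.145 without single libraries. The 5p share between methods in controls differed by 8.52 percentage points with reads of 15-45 nt (exact permutation p = 0.00794). The Mir200a 5p share between DCHP and control in PANDORA-seq ranged from -36.7 to -25.0 points without single libraries, and 8 of those 9 left an exact permutation p above 0.05. Between methods in controls it ranged from 20.8 to 32.5, and without traditional control 1, 2, 3 or 4 the exact permutation p was 0.0571.

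With the replicate block, libraries paired by number between methods gave 183 calls in controls and 148 in DCHP libraries, and Mir200a in DCHP libraries reversed to -0.15. The difference in the DCHP effect reversed for Mir200b to -0.29, with 0 calls. It changed no call on a member. For the cluster ratio and the 5p share, exact sign-flip permutation tests over 4 or 5 pairs cannot go below p = 0.125 or 0.0625, so they say nothing about calls. Within a method, where numbers did not pair the libraries, the block left 0 calls, and the Mir200a 5p difference in PANDORA-seq was -25.7 points (exact sign-flip permutation p = 0.25). A check of 1-mismatch reads against the whole genome was not run; 0 of them had an exact match in another GENCODE transcript. The low number of miRNA reads in PANDORA-seq, at a like total depth, limits Mir429 and Mir141, which mostly had under 10 reads a library there.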
